A study of Danio rerio with 12 samples.

Results

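The genes described here encode the activating arm of the circadian clock of zebrafish (Danio rerio): 3 Bmal genes, arntl1a, arntl1b and arntl2, and 3 partner genes, clocka, clockb and npas2. They were chosen by symbol, with earlier results of these data known, and all 6 were found among the 32674 genes of both deposited tables. All 6 were also among the 16364 genes that passed the filter on low values. Newer annotation names the Bmal genes bmal1a, bmal1b and bmal2. EK strain eggs spent 24 h in ethanol vehicle (0 µM, control lineage) or in 0.03 µM methylmercury (MeHg lineage), an organic mercury compound that crosses into the brain. These fish were counted as F1, and the compound was given to no later generation. RNA came from whole brains of F3 adults of each lineage, and the labels give no age, sex or hour of collection. They list 6 biological replicates per lineage but not how many brains went into each, so p-values measure the spread between these samples. The libraries used were 5 of the control lineage, numbered 2, 4, 5, 6 and 8, and 6 of the MeHg lineage, numbered 1, 2, 4, 5, 7 and 8.

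Bmal proteins pair with Clock or Npas2 through basic helix-loop-helix (bHLH) and PAS domains. The pairs bind E-box elements and switch on the genes of their own repressors, the Period and Cryptochrome proteins, and of the Rev-erb receptors, which in turn repress Bmal transcription. Npas2 is best known, from mouse, as a forebrain relative of Clock. Because the loop turns once a day, the message of an activator depends on the hour at which a brain is taken. A difference between lineages cannot be told apart here from a difference in the hour of collection.

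Values are scaled counts, meaning the fragments of a gene after the authors' division by a factor for each library. From the step between low values, each library held an implied 2062500 to 7504246 fragments. The 10 neuronal markers were present in every library, with summed scaled counts of 28196 to 43123. Some libraries stood apart in markers of neighbouring tissues. The summed scaled count of 11 epidermal markers was 62151 in control replicate 4, 26273 in MeHg replicate 4 and 49172 in MeHg replicate 5, against 1075 to 6275 in the others. MeHg replicate 4 also held the highest value of 10 of 11 muscle markers and of all 5 pituitary markers. MeHg replicate 8 held the highest value of 9 of 10 retina and pineal markers, which summed to 38007 there and to 169 to 2229 elsewhere. Of the defining markers, the photoreceptor gene rho reached 17518 in that library. Values without these libraries are given for arntl1a, arntl2, clocka and tefa, for the ratio of clocka to clockb and for called enzyme and cofactor genes. Of the other clock genes only the number that still passed is given, so a call reported below may have ended.

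All 6 activator genes had higher mean messages in MeHg-lineage brains, and 3 of them, arntl1a, arntl2 and clocka, passed a limma adjusted p of 0.05 over all tested genes. Among all tested genes, 0.0978% were called higher at that threshold. Because the members were picked with earlier results of these data known, such contrasts are no independent evidence. In bulk tissue a higher message cannot be told apart from a larger share of the cells that carry it. The median log2 fold change of the members was 1.38, beside 0.03 for all tested genes, of which 54.3% had a value above 0. At an unadjusted limma p under 0.05 there were 5 members, where 6.61% of all tested genes met that level. The 6 MeHg libraries lay above every control library for 4 members, a separation seen in 0.629% of tested genes, and in either direction in 1.37%. Without the 3 epidermis-rich libraries 1 member, arntl1a, was called higher, where 0.0428% of tested genes were, and 5 had an unadjusted limma p under 0.05, where 5.55% of tested genes did. Without these and MeHg replicate 8, 0 members passed, with 0.0244% of tested genes called higher and limma adjusted p of the members from 0.0767 to 0.987. In those 7 libraries 4 members had an unadjusted limma p under 0.05, where 3.89% of tested genes did. The log2 fold changes in those 7 libraries were 1.30 for arntl1a, 1.81 for arntl2 and 1.59 for clocka.

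**Figure D1:**
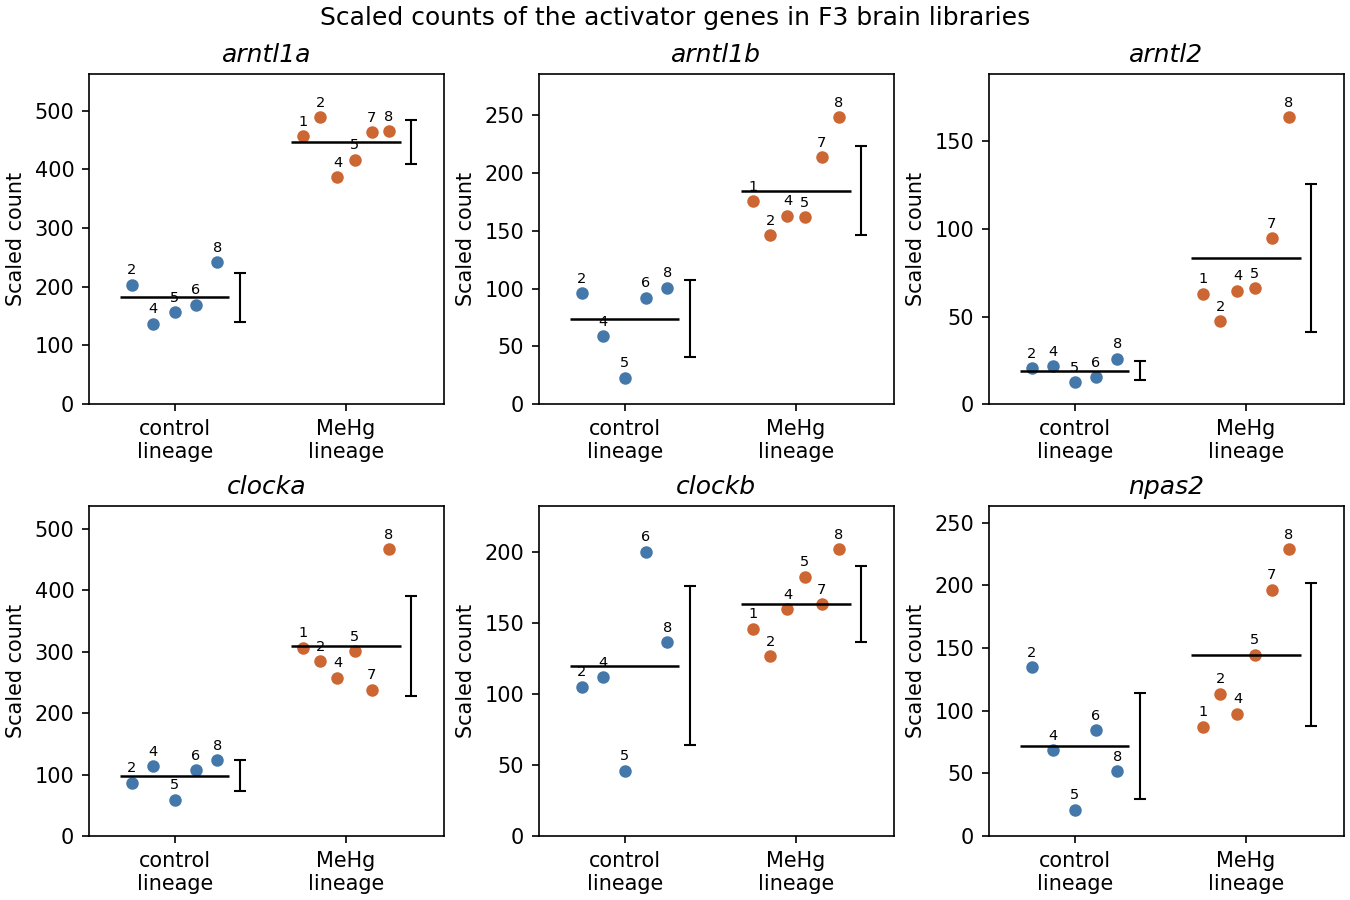
Scaled count of each activator gene in every library (points, numbered by replicate), with control lineage in blue and MeHg lineage in orange. Horizontal lines are means and the bars beside them 1 SD (n = 5 and 6). The lineages do not overlap for arntl1a, arntl1b, arntl2 and clocka, and overlap for clockb and npas2.

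Among the Bmal genes, arntl1a (ENSDARG00000006791) was the most abundant and the most even. Its scaled counts in control replicates 2, 4, 5, 6 and 8 were 203, 137, 157, 170 and 242. In the MeHg lineage they ran from 387 through a median of 460 to 488. The lowest MeHg library thus stood 1.60 times above the highest control library. The MeHg libraries also varied less among themselves, with a coefficient of variation of 8.38% beside 22.9% in controls. The log2 fold change was 1.32, with an SE of 0.15 and a limma adjusted p of 0.00061, a 2.49-fold difference, and arntl1a ranked 20 by p among all tested genes. Leaving out any 1 library gave log2 fold changes of 1.22 to 1.43, all past the threshold. Without scaling between libraries the value was 1.60 ± 0.41 (SE) and did not pass (limma adjusted p = 0.106).

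The duplicate arntl1b (ENSDARG00000035732) showed a similar mean difference with a wider spread. Control values were 96.0, 59.0, 23.0, 92.1 and 101 in replicates 2, 4, 5, 6 and 8, and MeHg values ran from 146 through a median of 169 to 248. Control replicate 5 was far below the other controls, at 0.264 times their mean. That value rested on 11 implied fragments. Its 95% counting interval of 11.5 to 41.1 scaled counts (exact Poisson, counting error only) stayed below the 59.0 of the next lowest control. The 59.0 was taken without counting error of its own. The log2 fold change was 1.45, with an SE of 0.34 and a limma adjusted p of 0.148, with every MeHg library above every control. Without control replicate 5 the difference was smaller, at 1.08 ± 0.19 (SE), and passed the threshold (limma adjusted p = 0.0219).

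The third Bmal gene, arntl2 (ENSDARG00000041381), had the lowest counts and the largest fold difference of the 6. Its control values were 20.6, 21.8, 12.5, 15.4 and 25.9 scaled counts in replicates 2, 4, 5, 6 and 8, which correspond to between 6 and 28 implied fragments. MeHg values ran from 47.2 through a median of 65.4 to 164. The highest came from MeHg replicate 8, the retina-rich library, at 2.44 times the mean of the other MeHg libraries. The log2 fold change was 1.98, with an SE of 0.31 and a limma adjusted p of 0.0136, or 3.94-fold. Without MeHg replicate 8 it was 1.76 ± 0.26 (SE, limma adjusted p = 0.0155). The call ended without MeHg replicate 7, where the value was 1.92 ± 0.34 (SE, limma adjusted p = 0.0506). The part of photoreceptor or pineal RNA in the value of replicate 8 was not tested.

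Of the partner genes, clocka (ENSDARG00000011703), a gene for the Clock protein, differed most. Its scaled counts were 86.9, 113, 59.3, 107 and 123 in control replicates 2, 4, 5, 6 and 8. MeHg libraries ran from 238 through a median of 292 to 467. No MeHg library came closer than 1.93 times the highest control, the widest gap among the members. The log2 fold change was 1.66, with an SE of 0.21 and a limma adjusted p of 0.0025, or 3.15-fold. MeHg replicate 8 was again the highest library, at 1.68 times the mean of the others, and without it the log2 fold change was 1.53, with an SE of 0.20 and a limma adjusted p of 0.0041. No single library left out ended the call. Without the 3 epidermis-rich libraries clocka did not pass, although its value was 1.78 ± 0.27 (SE, limma adjusted p = 0.0637).

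The second Clock gene, clockb (ENSDARG00000003631), did not separate the lineages. Control values of 105, 112, 46.0, 200 and 137 in replicates 2, 4, 5, 6 and 8 spanned most of the MeHg range, which ran from 127 through a median of 162 to 202. Only 1 of 6 MeHg libraries lay above all controls. The log2 fold change was 0.57, with an SE of 0.30 and a limma adjusted p of 0.810, with a 95% interval of -0.07 to 1.21 that includes 0. The value was 0.27 ± 0.19 (SE, limma adjusted p = 0.682) without control replicate 5.

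Npas2 takes the place of Clock in some pairs with Bmal. Its gene, npas2 (ENSDARG00000016536), had the most variable controls of the 6 genes, with scaled counts of 135, 68.4, 20.9, 84.5 and 51.7 in replicates 2, 4, 5, 6 and 8. The MeHg values ran from 87.2 through a median of 129 to 229, and 3 of 6 libraries lay above all controls. The log2 fold change was 1.14, with an SE of 0.41 and a limma adjusted p of 0.593. It was 0.76 ± 0.31 without control replicate 5 and 0.99 ± 0.42 without MeHg replicate 8 (SE), with limma adjusted p of 0.473 and 0.909.

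A pair of libraries marked the extremes of nearly every member. Control replicate 5 was the lowest control for 5 of the 6 genes, arntl1a being the exception, and MeHg replicate 8 was the highest MeHg library for 5, again except arntl1a. How often these libraries were extreme among all tested genes was not counted. For arntl2 in control replicate 5 the 95% counting interval (exact Poisson), 4.60 to 27.3 scaled counts, reached above every other control. For arntl1b, clocka, clockb and npas2 such an interval stayed below the value of the next lowest control, itself taken without counting error. For clocka the margin was small, with an upper bound of 84.6 beside 86.9. Control replicate 5 had an implied depth of 2735302 fragments. Control replicate 2 was shallower, at 2062500, and gave the highest control value of npas2. Control replicate 5 also held the highest value of 5 of 7 glial markers, which summed to 100049 there beside 36203 to 77571 elsewhere. Its muscle and pituitary marker sums, 2437 and 408, were the highest of the controls. Whether depth or tissue make-up has a part in the low values of that library was not tested. Without control replicate 5, 4 of the 6 members passed, and 72 of all genes passed in place of 44.

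**Figure D2:**
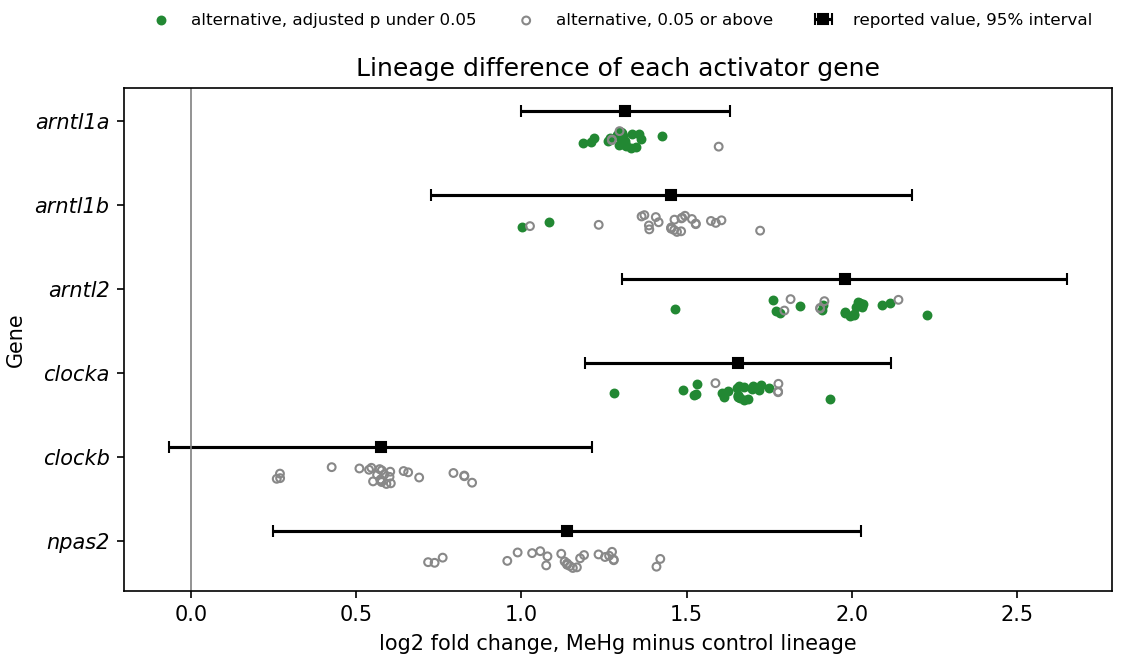
Log2 fold change of each activator gene, MeHg minus control lineage. Black squares are the reported values with 95% intervals, and small circles below them the values under each alternative, filled green where the limma adjusted p was under 0.05. Every value is above 0, and the calls of arntl1a, arntl2 and clocka hold under most alternatives.

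The duplicated genes did not all shift together. The log2 ratio of clocka to clockb averaged -0.19 ± 0.46 (SD, n = 5) over controls and 0.89 ± 0.28 (SD, n = 6) over the MeHg lineage. An exact permutation test over 462 splits gave a two-sided p of 0.0022, the smallest it can give, and an adjusted p of 0.0087 over 4 ratios. The ratio rose by 1.08 ± 0.24 (SE) on the log2 scale. Every MeHg library, from 0.54 to 1.2, lay above every control library, from -0.90 to 0.36. The difference was 0.90 to 1.22 with any 1 library left out and passed each time. In the sets without the epidermis-rich libraries it was 1.23 (8 libraries) and 1.16 (7 libraries), with exact permutation adjusted p of 0.114 and 0.229. An exact permutation test on either set cannot give an unadjusted p below 0.0286, which the 8 libraries reached.

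For the Bmal duplicates no such shift was found. The log2 ratio of arntl1a to arntl1b was 1.42 ± 0.74 in controls (SD, n = 5) and 1.29 ± 0.28 in the MeHg lineage (SD, n = 6), a difference of -0.14 ± 0.35 (SE, exact permutation p = 0.818, adjusted p = 0.818). Its sign changed without control replicate 5, where it was 0.18 ± 0.14 (SE, exact permutation adjusted p = 0.271). The ratio of arntl1a to arntl2 differed by -0.66 ± 0.30 (SE, exact permutation p = 0.0606, adjusted p = 0.121), and by -0.83 without MeHg replicate 2, when it passed (exact permutation adjusted p = 0.0476). The ratio of clocka to npas2 differed by 0.52 ± 0.42 (SE, exact permutation p = 0.236, adjusted p = 0.315). Controls of this last ratio ranged from -0.63 to 1.46 and enclosed most MeHg libraries.

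**Figure D3:**
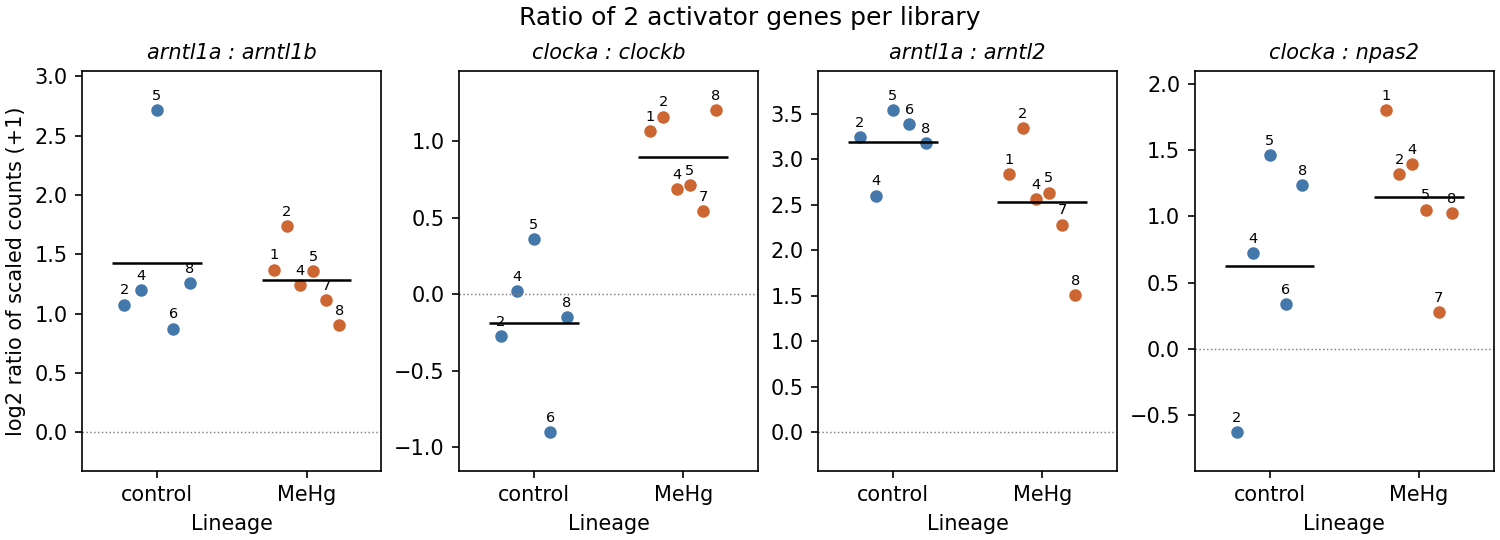
Log2 ratio of the scaled counts (plus 1) of 2 activator genes in each library, for 4 pairs. Points are libraries numbered by replicate, and lines are lineage means. In the panel for clocka and clockb the lineages do not overlap, and in the other 3 they do.

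Levels of different genes were compared in FPKM, fragments per kilobase of transcript at a common depth, which allows for transcript length. In control brains the order of mean FPKM was arntl1a at 14.6 ± 3.33, clockb at 7.05 ± 3.63, arntl1b at 6.75 ± 3.15, npas2 at 5.02 ± 2.96, clocka at 2.13 ± 0.58 and arntl2 at 1.55 ± 0.45 (SD, n = 5). In MeHg-lineage brains it was arntl1a at 35.9 ± 3.01, arntl1b at 15.8 ± 2.87, clockb at 10.3 ± 2.10, npas2 at 10.1 ± 3.99, clocka at 6.61 ± 1.72 and arntl2 at 6.45 ± 3.42 (SD, n = 6). The place of clocka near the bottom differs from its place by scaled count, because 1 scaled count of arntl1a was worth 3.74 times the FPKM of 1 of clocka.

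Neighbours in the order were compared over all 11 libraries by an exact sign-flip permutation test on the log2 FPKM, adjusted over 5 steps. The level of arntl1a was above that of arntl1b in 11 of 11 libraries (adjusted p = 0.0049), and npas2 was above clocka in 10 of 11 (adjusted p = 0.0049). The steps from arntl1b to clockb, from clockb to npas2 and from clocka to arntl2 did not exceed the spread over both lineages (exact adjusted p = 0.116, 0.117 and 0.0765). Within lineages these steps were not alike: arntl1b lay above clockb in 6 of 6 MeHg libraries, while clockb lay above arntl1b in 3 of 5 controls. The level of clocka was above that of arntl2 in 5 of 5 controls and in 4 of 6 MeHg libraries. Neither lineage alone gave an exact adjusted p under 0.05 for any step, and 5 controls cannot give a p below 0.0625. Among the genes tested, 65.1% had a lower mean FPKM than arntl1a in control brains and 86.2% in MeHg-lineage brains. For clocka these shares were 10.7% and 39.3%, for arntl2 6.57% and 38.4%, and for clockb 41.5% and 54.6%.

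**Figure D4:**
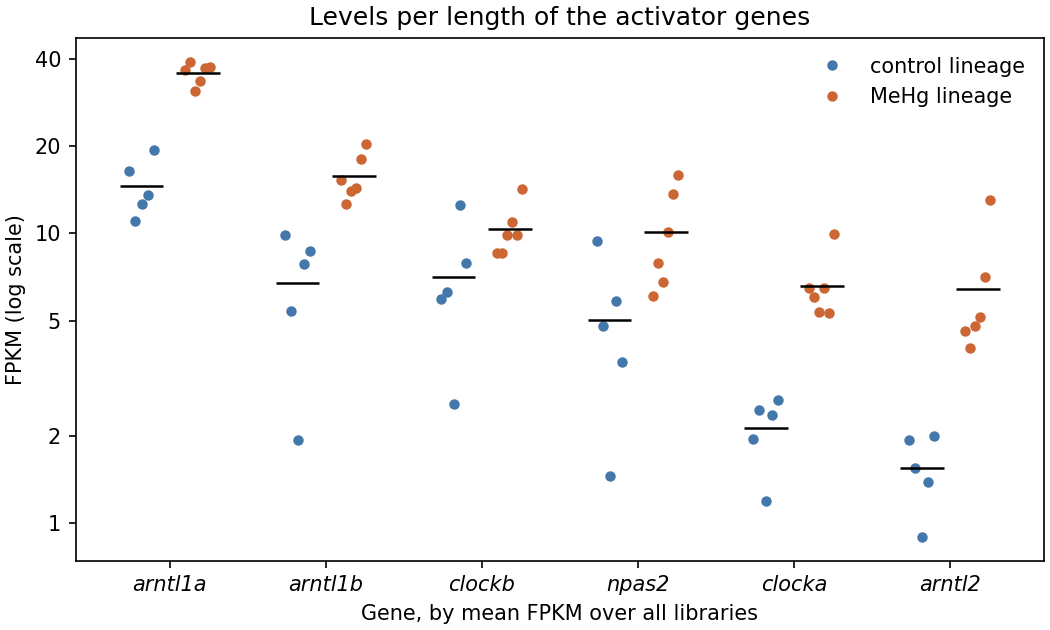
FPKM of the activator genes on a log scale, ordered by the mean over all libraries, with control lineage in blue and MeHg lineage in orange. Points are libraries and lines are means. The highest level is that of arntl1a in both lineages, and clocka and arntl2 lie lowest.

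Summed over the 3 Bmal genes, the FPKM was 22.9 ± 6.33 in control and 58.2 ± 7.54 in MeHg-lineage brains (SD, n = 5 and 6). As a description with no test, arntl1a made up 65.1% ± 9.58 of that sum in controls and 62.2% ± 5.74 in the MeHg lineage, and arntl2 6.79% ± 1.11 and 10.7% ± 4.05 (SD). For Clock and Npas2 genes the summed FPKM was 14.2 ± 5.78 and 27.0 ± 7.15 (SD). The share of clocka in it was 16.5% ± 5.04 in controls and 24.8% ± 4.08 (SD) in the MeHg lineage, and that of clockb ran from 34.3% to 60.4% in controls and from 34.2% to 44.9% in the MeHg lineage. Bmal FPKM per Clock and Npas2 FPKM ranged from 1.1 to 2.96 in controls and from 1.77 to 2.68 in the MeHg lineage, so the lineages overlapped.

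The worth of 1 scaled count in FPKM was constant for arntl1a and npas2, where the highest library was 1.01 times the lowest. It varied 1.32-fold for arntl2, 1.26-fold for arntl1b, 1.25-fold for clockb and 1.12-fold for clocka. The factor between FPKM and scaled count of these genes thus differed from library to library, and its source was not tested. For clockb the highest worth, 0.0702, was in MeHg replicate 8 and the lowest, 0.0560, in control replicate 5. With log2(FPKM + 0.1) in place of scaled counts, the same 3 members passed.

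A list of 33 other tested clock genes, drawn up with earlier results of these data known, gave 5 called higher and 11 called lower. In these samples it is no independent evidence. Over all tested genes 0.0978% were called higher and 0.171% lower. The list's median log2 fold change was -0.62, beside 1.38 for the activators. Among genes that act on Bmal transcription, the Rev-erb gene nr1d2b, a repressor, spanned 2014 to 2880 scaled counts in the control lineage and 283 to 413 in the MeHg lineage. Its relative nr1d1 was also called lower, at a log2 fold change of -2.41, but nr1d4b was called higher, at 2.56 (SE 0.30, limma adjusted p of 0.0012). The remaining Rev-erb genes did not pass, with nr1d4a at 2.001 ± 0.41 and nr1d2a at -0.14 ± 0.44 (SE). The ROR gene rorcb, an activator of Bmal genes, was called higher, with a log2 fold change of 3.06, with an SE of 0.32 and a limma adjusted p of 0.00040. The other ROR genes did not pass, with rorca at 1.24 ± 0.36, rorb at 0.54 ± 0.89, roraa at -0.03 ± 0.41 and rorab at -0.16 ± 0.13 (SE). Among repressors that act at E-boxes, bhlhe41 (Dec2) fell from 1019 ± 245 in controls (SD, n = 5) to 254 ± 56.8 (SD, n = 6; log2 fold change -2.0, SE 0.19, limma adjusted p of 0.00017). Its relative bhlhe40 also fell, by 1.66 ± 0.28 on the log2 scale (SE, limma adjusted p = 0.0228). The cryptochrome gene cry2b rose, at 330 to 444 in control and 972 to 1875 in MeHg libraries. Calls in this family went both ways, as cry1a was called lower, at -1.02 on the log2 scale. Not past the threshold were cry1b at -1.06, cry2a at 0.98 and cry4 at 0.87. The gene cry5, related by name, fell, at 72.1 to 167 in control and 12.3 to 17.0 in MeHg libraries. Whether cry5 acts as a clock repressor was not tested. At D-box elements, the activator gene tefa fell from 1925 ± 368 to 622 ± 46.7 (log2 fold change -1.61, SE 0.13, limma adjusted p of 6.28e-05) and the repressor gene nfil3-5 rose from 175 ± 52.3 to 1581 ± 348. Without scaling, tefa did not pass (limma adjusted p = 0.456). It passed without the 3 epidermis-rich libraries and without these and MeHg replicate 8 (limma adjusted p = 0.0086 and 0.0424). Of the other D-box activator genes, hlfa and hlfb stood at 0.34 and 1.91, and dbpa and dbpb at -0.88 and -0.73. None of these passed. Of the other repressor genes nfil3-2 was called higher, at 2.76, while nfil3 at 0.81 and nfil3-6 at -0.67 did not pass. Without the 3 epidermis-rich libraries 10 of the 33 genes passed, and 8 passed without these and MeHg replicate 8.

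Other genes of the bHLH-PAS family, to which the activators belong, gave 0 calls among 13 tested by limma. Of these, 1 had an unadjusted limma p under 0.05, where 6.61% of all tested genes did. The median log2 fold change of the 13 was 0.30, and 10 were above 0, as were 54.3% of all tested genes. The neuronal activity gene npas4a came first, at 278 to 1199 scaled counts in control and 1484 to 2697 in MeHg libraries (log2 fold change 1.33, SE 0.35, limma adjusted p of 0.265). Its relative npas4b had 0.79 ± 0.48, the coactivator gene ncoa1 0.63 ± 0.39 and the hypoxia factor gene hif1aa 0.32 ± 0.31 (SE), with limma adjusted p from 0.840 to 0.902. The dioxin receptor genes ahr1b and ahr2 stood at 0.50 ± 0.42 and 0.30 ± 0.27 (SE, limma adjusted p = 0.886 and 0.894). Single libraries moved these small values: without control replicate 5, npas4b was at 0.50 and ncoa1 at 0.16, and without MeHg replicate 8, ahr1b was at 0.13. The value of hif1aa was 0.11 without control replicate 2 and 0.48 without control replicate 6, and that of ahr2 was 0.53 when control replicate 4 was left out and 0.15 when either control replicate 6 or replicate 4 of the MeHg lineage was.

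Of 25 tested genes for enzymes and cofactors that act on Clock, Bmal or their repressors, 1 was called higher and 2 lower. Over all tested genes 0.0978% were called higher and 0.171% lower. The median log2 fold change of the 25 was 0.04. Both lower genes encode Clock-interacting pacemaker repressors, known from mammals to bind Clock. Of these, cipcb had 347 to 443 scaled counts in control and 177 to 257 in MeHg libraries (log2 fold change -0.87, SE 0.12, limma adjusted p of 0.0050). In FPKM with a pseudocount of 0.1 it did not pass (limma adjusted p = 0.534), nor did it without scaling (0.944). The other, cipca, had 25.1 to 64.0 and 3.40 to 12.1, with a log2 fold change of -2.10, with an SE of 0.36 and a limma adjusted p of 0.0298. Its adjusted p reached 0.110 with a library left out, and 7 of the 11 omissions ended the call: control replicates 2, 4 and 6, and in the MeHg lineage replicates 1, 2, 5 and 7. The F-box gene fbxl3l had 0 to 4.66 scaled counts in control and 12.7 to 54.5 in MeHg libraries (limma adjusted p = 0.0081). No control library of fbxl3l reached the filter's value of 10, so the gene entered the test only through the MeHg libraries. Its adjusted p is therefore no support for a difference. Its control counts were too few for a firm fold. Without the 3 epidermis-rich libraries cipcb and cipca did not pass (limma adjusted p = 0.169 and 0.254), and fbxl3l did (0.0444). Without these and MeHg replicate 8 none of the 3 passed, with fbxl3l at a limma adjusted p of 0.240. Kinase genes that phosphorylate clock proteins did not pass. Among them csnk1db stood at -0.31 ± 0.13, csnk1da at -0.27 ± 0.13 and gsk3b at 0.26 ± 0.12 (SE, limma adjusted p = 0.683, 0.796 and 0.754), and without scaling csnk1da had the opposite sign, at 0.02.

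**Figure D5:**
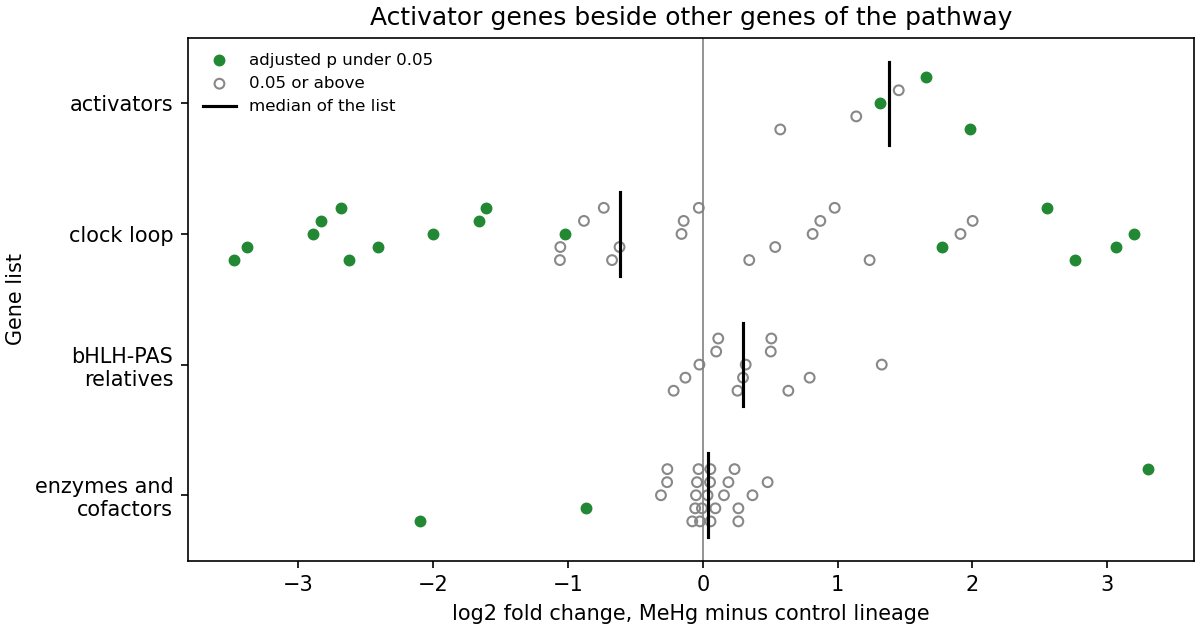
Log2 fold change, MeHg minus control lineage, of the 6 activators beside 33 other clock genes, 13 bHLH-PAS relatives and 25 enzyme and cofactor genes. Filled points passed a limma adjusted p of 0.05, and black lines are list medians. Clock loop genes lie on both sides of 0, and the points of the bHLH-PAS relatives are all open.

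Genes beside the activators on the chromosome were looked up by their order in a newer assembly (GRCz12tu), since the tables give no coordinates. The nearest 2 tested protein-coding genes with a matching name were taken on each side, so nearer genes without one could be skipped. Of 24 such neighbours, 0 passed (limma) and 2 had an unadjusted p under 0.05, where 6.61% of all tested genes did. Their median log2 fold change was 0.06. Both Bmal duplicates lay next to a copy of the gene btbd10. Of these copies, btbd10a beside arntl1a stood at 0.26 ± 0.12 and btbd10b beside arntl1b at 0.02 ± 0.15 (SE, limma adjusted p = 0.777 and 0.987).

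Profiles over the 11 libraries were compared by the mean absolute difference of log2 values after each gene's mean was removed. Only tested genes with a symbol were ranked. The members themselves and names with a colon were left out, so a fellow activator or an unnamed gene may lie nearer. Nearest to arntl1a were impdh1b, a gene of guanine nucleotide synthesis, at 0.18 log2 units, and pipox, at 0.24. The former had 138 to 220 scaled counts in control and 317 to 494 in MeHg libraries, and the latter 17.1 to 31.4 and 45.3 to 90.0. Nearest to clocka were cry2b at 0.24 and impdh1b at 0.27, and nearest to arntl2 were cry2b at 0.28 and nr1d4b at 0.36. The profile of arntl1b lay closest to those of nyap2b at 0.18 and dot1l, a histone methyltransferase gene, at 0.23. For clockb the nearest were inpp5f at 0.13 and ammecr1 at 0.14, and for npas2 apof at 0.29 and samd4a at 0.29. Genes chosen for a profile like that of a member share its lineage difference by that choice, so their log2 fold changes are a description with no test. They were 1.27 for impdh1b, 1.17 for pipox, 1.71 for nyap2b and 1.2 for dot1l, and between 0.36 and 0.84 for the 4 genes nearest to clockb and npas2. Without control replicate 5 those of nyap2b and dot1l were 1.27 and 0.90.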

How the data were processed

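Total RNA of adult brain was made into TruSeq libraries and sequenced from both ends, per the labels' protocols. CASAVA 1.8.2, TopHat, Cuffnorm, cutadapt and FastQC are named in the submitters' processing notes, with the build Zv9 and no settings. The sources used here do not give the use of strand, the gene models or the handling of reads that match duplicated genes. Reads of near-identical stretches could be split between duplicates.

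The authors deposited a table of signal values, fragment counts per gene divided by 1 factor for each library. The values themselves show this: below 200 steps, 98.2% to 98.9% of them fell within 0.01 of a whole multiple of that library's step. Fractions among the lowest values kept it from use as raw counts, so the planned count tests were not run. The authors also deposited FPKM values, normalised for length and depth. A value column without a name, 1 in each table, was not used.

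The test of scaled counts, on log2(value + 1), used limma 3.58.1 under R 4.3.3 (trend and robust estimation, statmod 1.5.0) on genes with at least 10 in at least 6 libraries. P-values were adjusted over all these genes (Benjamini-Hochberg, threshold 0.05). Fold changes are on that log2 scale, which understates weakly expressed genes. The fit was tested on simulated counts, and the exact tests on small sets of numbers with known answers. Ratios used an exact two-sided permutation test, and levels an exact sign-flip test. Tables were prepared in Python 3.11.15 with pandas 2.3.3. Alternatives covered scaling, pseudocount, filter, variance model, FPKM, pairing and each library left out. Sets without libraries rich in other tissues were added after seeing the data.

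Members and gene lists were chosen with earlier results of these data known. Named genes are the members, up to 6 genes per list taken by p, and the 2 ranked genes of nearest profile to each member. Outside that rule the Rev-erb and ROR genes other than nr1d2b and nr1d4b, bhlhe40 and the btbd10 copies were named after their values were seen. The cryptochrome genes cry1a, cry1b, cry2a and cry4 and the D-box genes hlfa, hlfb, dbpa, dbpb, nfil3, nfil3-2 and nfil3-6 were also named in this way. Promoter sequences were not analysed here.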

Additional observations from a re-analysis of the deposited data

Results flagged for a closer look

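Among 66 groups of libraries examined, 1 per named gene and lineage, 3 held a library far from the others by Dixon's criterion, where chance gives about 1 in 20. For clocka, MeHg replicate 8 had a scaled count of 467, beside 238 to 307 in the other MeHg libraries. The dioxin receptor gene ahr1b stood at 136 in the same library, beside 22.1 to 38.5. This is the library whose retina and pineal markers summed to 38007. For ahr2, control replicate 4 had 461, beside 159 to 233 in the other controls. In that library the epidermal markers summed to 62151. The part of other tissue in these values was not tested.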

How the results depend on the processing

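All 6 members kept a positive log2 fold change under every alternative run (26 for arntl2, which a filter of 50 removed, and 27 for the others). Values of arntl1a ranged from 1.19 to 1.60, of arntl1b from 1.002 to 1.72, of arntl2 from 1.47 to 2.23, of clocka from 1.28 to 1.93, of clockb from 0.26 to 0.85 and of npas2 from 0.72 to 1.42. With each library left out in turn, arntl1b lay between 1.08 and 1.61, arntl2 between 1.76 and 2.11, the ratio of arntl1a to arntl1b between -0.28 and 0.18 and that of arntl1a to arntl2 between -0.83 and -0.46. The number of all genes past the threshold ran from 36 to 72 in these fits, the highest without control replicate 5.

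The call of arntl1a ended without scaling (1.60) and that of arntl2 with voom and quality weights (1.796), while arntl1b passed with array weights (1.002). Replicate numbers shared by the lineages (2, 4, 5 and 8) were not taken to pair the libraries. The correlations of same-numbered deviations were all positive, from 0.055 to 0.463, but only those of numbers 4 and 5 were above 0.1, and 1 of the 4 control libraries, number 4, correlated best with its own number. A fit with the replicate number as a block used 8 libraries and gave 1.27 for arntl1a, 1.90 for arntl2 and 1.78 for clocka, none past the threshold, with 0 members, 20 genes in all and 10 clock loop genes called. The same 8 libraries without the block gave the same 3 values (1.27, 1.90 and 1.78), 0 members and 23 genes. With the block, the ratio of clocka to clockb differed by 0.95, where 4 pairs cannot give an exact p under 0.125.

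Without the 3 epidermis-rich libraries the values were 2.14 for arntl2, 1.78 for clocka and 1.23 for the ratio of clocka to clockb, none past the threshold (the exact p of the ratio, 0.0286, is the smallest 4 against 4 libraries can give), with 1 member, 22 genes and 10 clock loop genes called. Without these and MeHg replicate 8 they were 1.30 for arntl1a, 1.81, 1.59 and 1.16, with 0 members, 14 genes and 8 clock loop genes. Fewer libraries entered these fits. In all libraries 44 genes passed. Without scaling 24 did, with array weights 105 and with voom 69, and the median of all tested genes moved from 0.03 to 0.30 without scaling. The sign of csnk1da turned without scaling (0.02). Counting error limits arntl2 most, with as few as 6 implied fragments in a library. Tests of edgeR and DESeq2 type were not run, and an unweighted trimmed mean of log ratios stood in for TMM scaling.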
